A study of Mus musculus with 10 samples.

Results

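Methionine is turned into the methyl donor S-adenosylmethionine mostly in the liver, and the homocysteine that is left after a methyl transfer is either methylated back to methionine or passed through cystathionine to cysteine. The cysteine is then oxidised towards taurine or joined with glutamate and glycine to make glutathione, the main thiol antioxidant of hepatocytes. A set of 10 mouse genes that encode these steps (Mat1a, Gnmt, Ahcy, Bhmt, Bhmt2, Cbs, Cth, Cdo1, Csad and Gss) was compared between livers given an adenovirus encoding Phf2, a histone demethylase of the H3K9me2 mark, and livers given an adenovirus encoding the fluorescent protein GFP. The genes were chosen by name, with earlier results of these data known. Each was read through the array feature that the platform annotation gives to it alone, the brightest one where there were several. A value was obtained for 9 of the 10 genes, out of 19938 genes with such a feature. Ahcy, which splits S-adenosylhomocysteine into homocysteine and adenosine, has 3 features, each annotated to Ahcy together with Gm4737, so no level was assigned to it.

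All mice were male C57BL/6J animals, 8 weeks old at the tail vein injection and fed when their livers were collected 3 weeks later, with 5 mice per virus and 1 Affymetrix Gene ST array per liver. The virus reaches the liver of an otherwise normal adult mouse, and the GFP group carries the same kind of vector. By design the groups differ in the encoded protein, but the methods state that mice were neither randomized nor blinded. Whether other differences between the groups contribute was not tested. Values are log2 expression after RMA normalization by the authors, and a log2 fold change subtracts the GFP mean from the Phf2 mean, given with its standard error (SE). Pairs of arrays correlated at 0.978 to 0.993, and the feature of Phf2 read 6.32 to 6.54 in GFP livers and 6.27 to 6.58 in Phf2 livers (limma adjusted p = 0.751), which is no check of the labels, since the part of the gene that it reads is not known. On the first principal component over all features (28.4% of the variance) Phf2 replicates 1 and 5 lay at 6.93 and 5.48, nearer to the GFP arrays (-28.0 to -16.2) than Phf2 replicates 2, 3 and 4 at 24.2, 41.4 and 35.2. Hepatocyte markers were among the highest values of every array, with the mean of 5 of them (Alb, Apoa1, Ttr, Apob and Fga) at 12.16 to 12.25 in GFP livers and 11.98 to 12.11 in Phf2 livers. Transcripts of pancreatic enzymes were also present, with the mean of 7 of them between 6.39 and 12.28 in GFP livers and between 6.01 and 10.83 in Phf2 livers.

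Among the 9 genes with a value, Cbs, Cth and Bhmt2 were lower and Gss was higher in Phf2 livers at an adjusted p of 0.05, and the other 5 did not pass the test. These 4 calls are 44.4% of the 9, where 9.67% of all genes were called (4.24% lower and 5.43% higher). The shares only describe the set, since its genes were chosen with earlier results of these data known. The 9 genes also lay between percentiles 86.5 (Gss) and 99.8 (Bhmt) of mean level, so that all genes are not a background of equal level. The median log2 fold change of the 9 genes was -0.24 and that of all genes -0.01. The fitted value was negative for 7 of the 9 genes, from -1.01 for Cth to -0.04 for Mat1a, and positive for Csad and Gss. Without the 3 arrays on which pancreatic markers averaged above 10 (GFP replicate 1, Phf2 replicates 2 and 3) 0 of the 9 genes passed in limma, while 365 of all genes were higher and 230 lower instead of 1083 and 846. At a 1.5-fold change with an unadjusted p of 0.05, 3 of the 9 genes were lower and 0 higher, where 3.54% of all genes met this rule (1.16% lower and 2.38% higher).

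**Figure D1:**
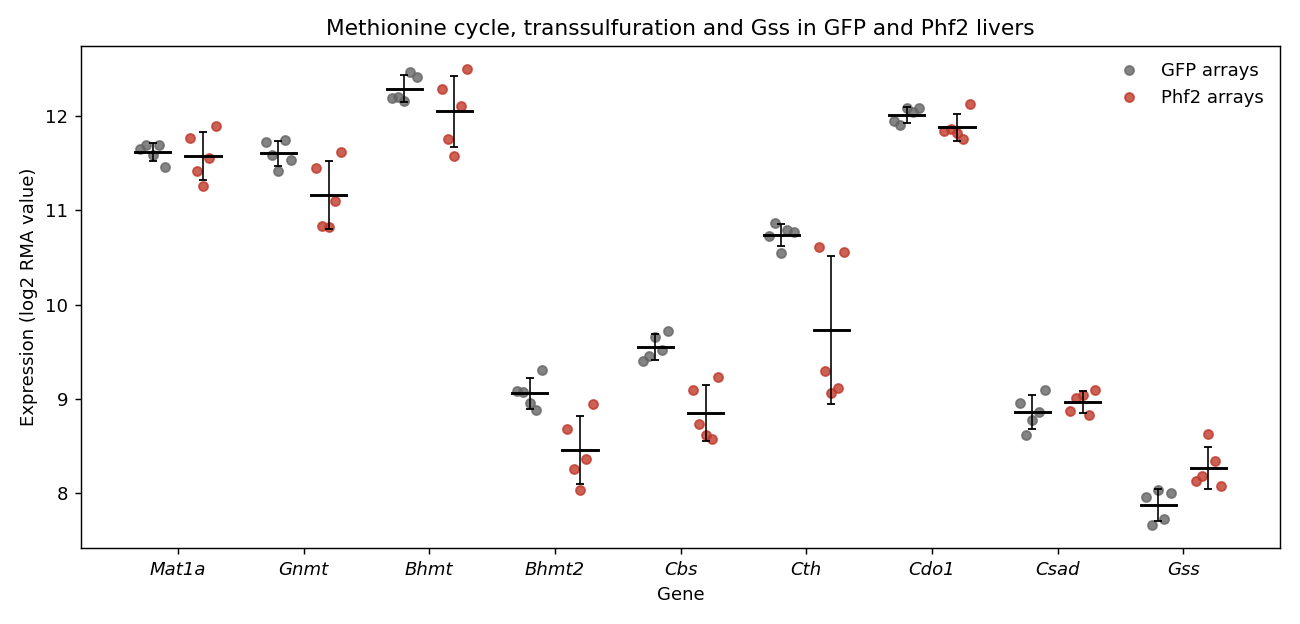
Vertical axis, log2 RMA value; horizontal axis, the 9 genes with a value. Grey points are the 5 GFP arrays and red points the 5 Phf2 arrays, each in the order of the replicate numbers from left to right, with long lines at the means and bars for the SD. The Phf2 points of Cbs all lie below the GFP points and those of Gss all above, whereas Phf2 replicates 1 and 5 of Cth lie at 10.61 and 10.56, beside the GFP arrays.

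The promoter sequences of 7 of the 10 genes were matched by symbol in RefSeq (GRCm38.p6), with 2 promoters for Csad, and those of Mat1a, Cth and Cdo1 were not used here. The 250 bases before the transcription start are shown for Bhmt2, Cbs and Gss, whose levels passed the test, and for Bhmt, which begins 36544 bases from the start of Bhmt2 on the same strand of chromosome 13. All 4 are on the minus strand and are written 5′ to 3′, from chr13:93637759-93638008 for Bhmt, chr13:93674303-93674552 for Bhmt2, chr17:31637206-31637455 for Cbs and chr2:155592811-155593060 for Gss. Capitals mark a CACGTG E-box.
Bhmt: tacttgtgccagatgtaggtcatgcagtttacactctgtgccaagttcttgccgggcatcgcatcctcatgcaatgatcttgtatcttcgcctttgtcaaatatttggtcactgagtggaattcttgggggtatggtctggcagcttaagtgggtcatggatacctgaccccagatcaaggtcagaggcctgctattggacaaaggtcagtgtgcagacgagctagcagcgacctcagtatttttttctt
Bhmt2: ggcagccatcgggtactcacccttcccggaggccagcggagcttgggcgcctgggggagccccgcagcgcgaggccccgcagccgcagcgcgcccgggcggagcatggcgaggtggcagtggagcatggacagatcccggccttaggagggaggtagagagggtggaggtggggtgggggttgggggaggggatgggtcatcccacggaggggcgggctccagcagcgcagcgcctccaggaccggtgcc
Cbs: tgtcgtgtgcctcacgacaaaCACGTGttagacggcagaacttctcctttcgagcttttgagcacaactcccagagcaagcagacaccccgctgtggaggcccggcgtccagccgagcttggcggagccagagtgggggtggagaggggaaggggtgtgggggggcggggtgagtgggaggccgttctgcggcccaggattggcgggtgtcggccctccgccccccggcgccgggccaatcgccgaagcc
Gss: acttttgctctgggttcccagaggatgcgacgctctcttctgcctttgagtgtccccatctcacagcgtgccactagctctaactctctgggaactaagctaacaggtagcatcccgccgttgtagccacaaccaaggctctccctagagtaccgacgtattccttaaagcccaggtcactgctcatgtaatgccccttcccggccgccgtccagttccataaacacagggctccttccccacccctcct
An E-box (CACGTG, the same on both strands) and the core of the antioxidant response element (TGACNNNGC, searched on both strands) were looked for because the study discusses Phf2 at such elements. In windows of 300 bases, from 250 before to 50 after the start, CACGTG was found in 1 of the 8 promoters of these genes, that of Cbs, where it begins 229 bases before the start, and in 7.15% of all 32851 promoters. TGACNNNGC was found in 0 of the 8 and in 12.4% of all. As only the Cbs match was found in the promoters of these genes, no overlap between the motifs was possible there. The stretch before the start was 74% G and C for Bhmt2, 68% for Cbs, 56% for Gss and 48% for Bhmt, against a median of 52.4% over all promoters.

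Mat1a encodes the liver form of methionine adenosyltransferase, which makes S-adenosylmethionine. It read 11.65, 11.69, 11.59, 11.69 and 11.46 in the 5 GFP livers and 11.77, 11.42, 11.26, 11.55 and 11.89 in the 5 Phf2 livers. The groups overlapped, with the lowest array (replicate 3) and the highest (replicate 5) both in the Phf2 group. The log2 fold change was -0.04 (SE 0.11, 95% interval -0.27 to 0.20, limma adjusted p = 0.899).

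Gnmt encodes glycine N-methyltransferase, an abundant liver enzyme that spends S-adenosylmethionine on glycine and forms sarcosine. GFP livers read 11.72, 11.59, 11.42, 11.75 and 11.53, and Phf2 livers 11.45, 10.83, 10.82, 11.10 and 11.62. Replicates 2, 3 and 4 of the Phf2 group lay below every GFP array and replicates 1 and 5 among them. The log2 fold change of -0.44 (SE 0.15, limma adjusted p = 0.0903) did not pass the test, and it passed when Phf2 replicate 5 was left out (-0.55, adjusted p = 0.0165).

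Bhmt encodes the betaine-homocysteine methyltransferase, which returns homocysteine to methionine with a methyl group from betaine. Its brightest feature read 12.19, 12.20, 12.16, 12.47 and 12.41 in GFP livers and 12.29, 11.76, 11.58, 12.11 and 12.50 in Phf2 livers. The groups overlapped, and the log2 fold change was -0.24 (SE 0.15, limma adjusted p = 0.421). It was -0.12 without Phf2 replicate 3 and -0.01 without the 3 arrays rich in pancreatic markers. The 3 features annotated to Bhmt alone did not read the same change. Feature 10457114 moved like the brightest one (10511886), with a log2 fold change of -0.22, whereas feature 10411142 read 9.44, 9.33, 9.35, 9.55 and 9.47 in GFP livers and 9.01, 8.91, 8.60, 8.78 and 9.37 in Phf2 livers. On that dimmer feature 4 of the 5 Phf2 arrays lay below every GFP array, and the log2 fold change was -0.49 (SE 0.12, limma adjusted p = 0.0484 when adjusted over all 35556 features). Which part of the transcript, or which related sequence, each feature reads was not determined.

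Bhmt2 encodes a close relative of Bhmt that methylates homocysteine with S-methylmethionine. It read 9.08, 9.07, 8.96, 8.88 and 9.31 in GFP livers and 8.68, 8.26, 8.04, 8.36 and 8.95 in Phf2 livers. In the Phf2 group, 4 of the 5 arrays lay below every GFP array, and replicate 5 lay within their range. The level fell by 0.61 in log2 units (SE 0.15, limma adjusted p = 0.0229), a 1.52-fold decrease, and a two-sided exact permutation test gave p = 0.0159. Leaving out GFP replicate 2 (adjusted p = 0.0504), GFP replicate 5 (0.0565), Phf2 replicate 2 (0.0636) or Phf2 replicate 4 (0.0604) ended the call.

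Transsulfuration begins with Cbs, the cystathionine beta-synthase that condenses homocysteine with serine. Cbs read 9.40, 9.46, 9.66, 9.52 and 9.72 in GFP livers and 9.10, 8.73, 8.62, 8.58 and 9.23 in Phf2 livers. The groups did not overlap, with every Phf2 array the lower and replicates 1 and 5 the closest to the GFP arrays. Groups that did not overlap were seen for 9.08% of all genes (4.36% lower and 4.71% higher in Phf2 livers), and among the 9 genes for Cbs and, in the other direction, Gss. Cbs fell by 0.70 in log2 units (SE 0.13, limma adjusted p = 0.00386), a 1.63-fold decrease. The two-sided exact permutation test gave p = 0.00794, the smallest that 5 against 5 arrays allow. The call held in each fit that left out 1 array.

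Cth encodes cystathionine gamma-lyase, which releases cysteine from cystathionine. GFP livers read 10.73, 10.86, 10.55, 10.79 and 10.77, and Phf2 livers 10.61, 9.30, 9.06, 9.12 and 10.56. Replicates 2, 3 and 4 of the Phf2 group were lower than any GFP array by over 1 unit, and replicates 1 and 5 lay at the lower end of the GFP range. The SD was 0.78 among the Phf2 arrays and 0.11 among the GFP arrays. The level fell by 1.01 in log2 units (SE 0.29, limma adjusted p = 0.0459), a 2.02-fold decrease of the mean that no more than 3 of the 5 livers showed, and the exact permutation test gave p = 0.0238 (two-sided). The call was lost without any 1 of the 5 GFP arrays (adjusted p 0.0622 to 0.0963) and without Phf2 replicate 2 (0.117), 3 (0.102) or 4 (0.118), and held in 8 of 21 alternative analyses.

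Cysteine that is not used for protein or glutathione is oxidised by Cdo1, the cysteine dioxygenase, and the product is decarboxylated by Csad on the way to taurine. Cdo1 read 11.95, 11.90, 12.08, 12.04 and 12.08 in GFP livers and 11.84, 11.86, 11.82, 11.76 and 12.13 in Phf2 livers. Replicate 5 was the highest of all 10 arrays and the other 4 Phf2 arrays were the lowest, and the log2 fold change was -0.13 (SE 0.08, limma adjusted p = 0.372). Csad read 8.96, 8.62, 8.78, 8.86 and 9.10 in GFP livers and 8.87, 9.01, 9.04, 8.83 and 9.10 in Phf2 livers. All Phf2 values of Csad lay within the GFP range, with a log2 fold change of 0.10 (SE 0.09, 95% interval -0.09 to 0.30, adjusted p = 0.579) that ran from 0.04 to 0.16 when 1 array was left out.

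Gss encodes glutathione synthetase, which adds glycine in the last step of glutathione synthesis. It read 7.96, 7.66, 8.03, 7.73 and 8.00 in GFP livers and 8.13, 8.18, 8.63, 8.34 and 8.08 in Phf2 livers. Every Phf2 array lay above every GFP array, the nearest being Phf2 replicate 5 and GFP replicate 3, and the highest was Phf2 replicate 3. Gss rose by 0.40 in log2 units (SE 0.11, limma adjusted p = 0.0413), a 1.32-fold increase, with p = 0.00794 in the two-sided exact permutation test. The call held in 10 of 21 alternative analyses. It was lost under median centring of the arrays (0.38, adjusted p = 0.0782) and when GFP replicate 1 (0.0610), 2 (0.0963), 4 (0.0949) or 5 (0.0505) was left out, or Phf2 replicate 2 (0.0652), 3 (0.0748) or 4 (0.0987).

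**Figure D2:**
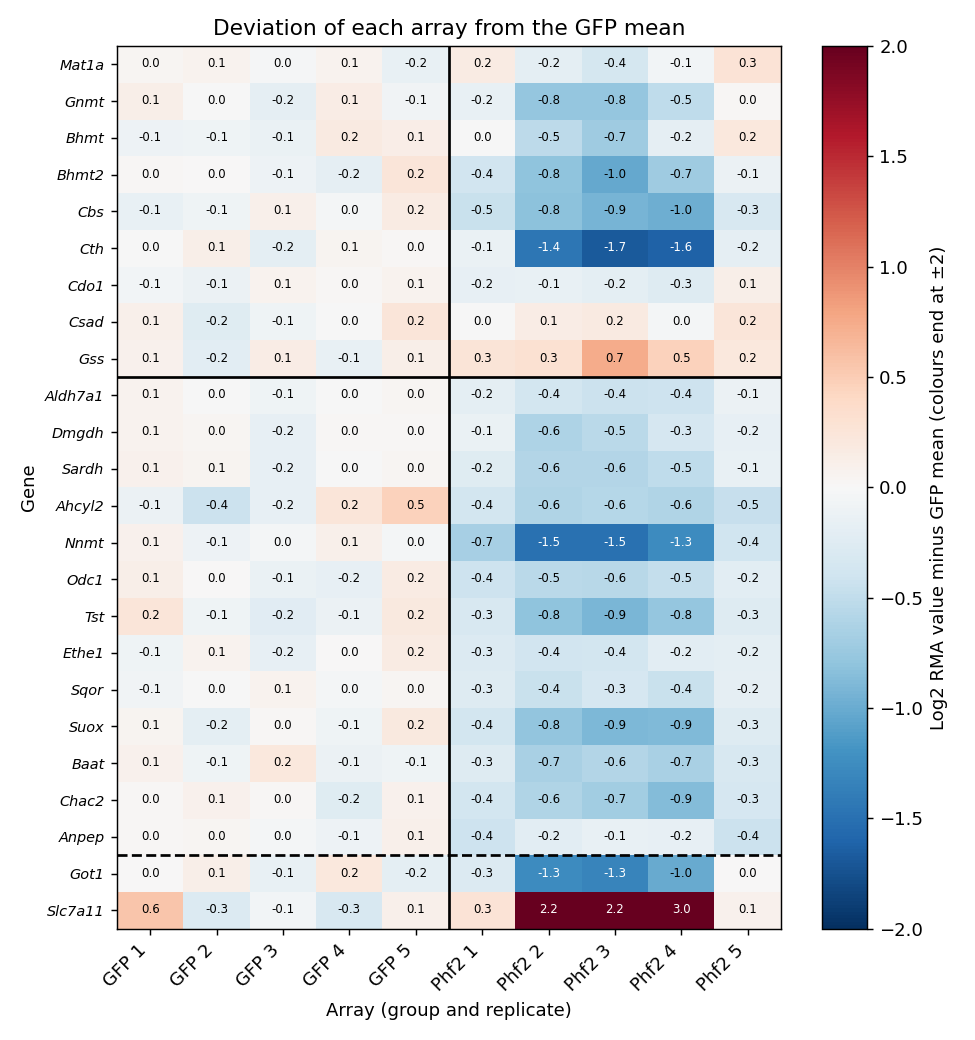
Log2 RMA value of each array minus the mean of the 5 GFP arrays (colour and number) for the 9 genes with a value (above the solid line), the 13 called genes of the related lists (between the lines), and Got1 and Slc7a11, which did not pass the test (below the dashed line). Columns are the 10 arrays by group and replicate. The blue cells of Cth and Nnmt are deepest in Phf2 replicates 2, 3 and 4, and Gss is red in all 5 Phf2 arrays.

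The order of the Phf2 arrays was similar for many of these genes. Replicate 5 was the highest Phf2 array for 7 of the 9 genes, and replicate 3 the lowest for 5 of them and replicate 4 for 3. Relative to the mean of their group, Phf2 replicates 1 and 5 lay on average 0.20 and 0.35 higher over the 9 genes, and replicates 2, 3 and 4 at -0.18, -0.23 and -0.13. The GFP arrays lay between -0.06 and 0.09 of their own group mean.

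The level of pancreatic transcripts differed between the same arrays. The mean of the 7 pancreatic markers was 6.01 and 6.24 in Phf2 replicates 1 and 5 and 10.83, 10.25 and 9.03 in replicates 2, 3 and 4, and 12.28, 8.59, 7.26, 6.39 and 7.98 in GFP replicates 1 to 5. GFP replicate 1 had the highest pancreatic level of all arrays and read 10.73 for Cth and 9.40 for Cbs, above every Phf2 array. That Cbs value was the lowest of the GFP group. Within the Phf2 group, replicates 2, 3 and 4, the richest in pancreatic markers, were the lowest for Cth (9.30, 9.06 and 9.12) and Cbs (8.73, 8.62 and 8.58). The cause of this order was not tested. Pancreatic markers were not the only ones that set Phf2 replicates 1 and 5 apart, as markers of other cells given below did too. With the mean of the 7 pancreatic markers as a covariate, the log2 fold change was -1.02 for Cth (limma adjusted p = 0.0155), -0.70 for Cbs (0.000785), -0.61 for Bhmt2 (0.0145) and 0.40 for Gss (0.0326). Without the 3 arrays above 10, which left 4 GFP and 3 Phf2 livers, it was -0.65 for Cth (0.378), -0.62 for Cbs (0.0551), -0.40 for Bhmt2 (0.229) and 0.33 for Gss (0.20).

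**Figure D3:**
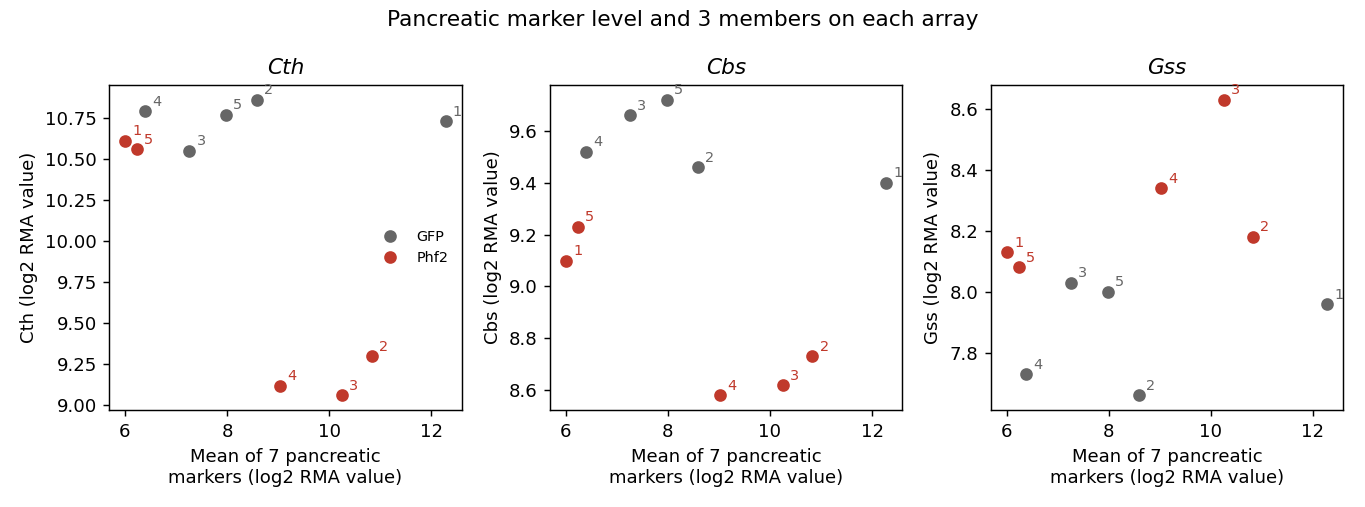
Mean log2 RMA value of 7 pancreatic enzyme markers (horizontal axis) and log2 RMA value of Cth, Cbs and Gss (vertical axes, each with its own range) on each array, with GFP arrays in grey, Phf2 arrays in red and replicate numbers beside the points. GFP replicate 1, at 12.28, lies with the other GFP arrays for Cth at 10.73. Phf2 replicates 2, 3 and 4, the richest of their group in pancreatic markers, lie between 9.06 and 9.30.

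Markers of other liver cells also differed between the groups. Of 6 markers of T and NK cells 5 were higher (mean level 4.77 to 5.10 in GFP livers and 5.46 to 6.05 in Phf2 livers), and Ncr1 (-0.08) did not pass. Of 7 macrophage markers 3 were lower, Timd4 (-1.59), Clec4f (-0.54) and Marco (-0.37). The others did not pass, Vsig4 with a negative value (-0.39) and Adgre1 (0.18), Cd5l (0.24) and Cd68 (0.41) with positive ones. The mean macrophage level was 7.70 to 8.44 in GFP livers and 7.49 to 7.83 in Phf2 livers. Of all genes 5.43% were called higher and 4.24% lower. Of the 5 hepatocyte markers, Fga, with a log2 fold change of -0.40, and Apoa1, with -0.21, were lower, and Alb (-0.01, limma adjusted p = 0.940), Ttr and Apob did not pass the test. Of 5 endothelial markers 1 was higher, and none of 4 cholangiocyte, 4 B cell, 5 stellate, 4 neutrophil or 7 pancreatic markers passed the limma test. Several of these lists had lower means in Phf2 replicates 1 and 5 than in Phf2 replicates 2, 3 and 4. For B cells the means were 4.48 and 4.52 against 5.07, 5.01 and 5.48. For macrophages they were 7.54 and 7.49 against 7.65, 7.83 and 7.79. T and NK cell, cholangiocyte, endothelial, stellate and neutrophil markers had this order too. Hepatocyte markers did not, at 12.05 and 12.11 against 12.07, 12 and 11.98. In whole liver, fewer hepatocytes and less of a transcript per hepatocyte cannot be told apart, and the part of these cell types in the values above was not tested.

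Genes beside these steps were read from 5 lists of the same metabolism, with a value for 40 of 45 genes. These lists, too, were chosen with earlier results of these data known, so their counts only describe them. In limma 13 of the 40 were lower and 0 were higher (32.5%, against 9.67% of all genes). By the methods' t-test 8 were lower and 0 higher, without Phf2 replicate 2 there were 8 lower, and without the 3 arrays rich in pancreatic markers 1 was lower (Nnmt) and 0 higher. The median log2 fold change was -0.13, and 62.5% of the 40 had a negative value, as did 54.7% of all genes. Of 6 genes of remethylation and methyl donors, 3 were lower. Sardh, which oxidises the sarcosine that Gnmt forms, fell by 0.41 (SE 0.09, limma adjusted p = 0.0151), and Dmgdh, which oxidises the dimethylglycine that Bhmt releases, fell by 0.36 (adjusted p = 0.0353). The Dmgdh call held in 11 of 21 alternatives, and its value was -0.20 (adjusted p = 0.376) without the arrays rich in pancreatic markers. The third was Aldh7a1, which makes betaine from its aldehyde. Mtr, the folate-dependent methionine synthase, had a value of 0.02 (adjusted p = 0.946), and Chdh, which oxidises choline towards betaine, one of 0.01 (adjusted p = 0.976).

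Of 7 other genes of S-adenosylmethionine synthesis and use, 2 were lower. Nnmt, which methylates nicotinamide, read 9.68, 9.48, 9.54, 9.70 and 9.55 in GFP livers and 8.93, 8.10, 8.10, 8.33 and 9.18 in Phf2 livers, so that the groups did not overlap and Phf2 replicates 1 and 5 were again the closest to the GFP arrays. It fell by 1.06 in log2 units (SE 0.19, limma adjusted p = 0.00376), and its call held in all 21 alternatives, including the fit without the arrays rich in pancreatic markers (-0.75, adjusted p = 0.0470). Ahcyl2, a relative of Ahcy, fell by 0.52 (adjusted p = 0.0386), a call that held in 11 of 21 alternatives and was lost, for example, by the methods' t-test (0.117) and without GFP replicate 5 (-0.40, 0.0615). Of 7 genes of methionine salvage and polyamines the only call was Odc1, the ornithine decarboxylase that starts polyamine synthesis, which fell by 0.44 (adjusted p = 0.00659).

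The list of cysteine breakdown, sulfide and taurine had the most calls, with 5 of 9 genes lower and a median of -0.33. Suox, the sulfite oxidase, fell by 0.64 (SE 0.13, limma adjusted p = 0.00809) and Tst, a thiosulfate sulfurtransferase, by 0.61 (SE 0.14, adjusted p = 0.0151). The other 3 were Sqor and Ethe1, both of mitochondrial sulfide oxidation, and Baat, which joins taurine to bile acids. The 2 groups of each of these 5 genes did not overlap. Of all genes, 4.24% were called lower, and 4.36% had groups that did not overlap, with Phf2 livers the lower. Over the 5 lists, 10 of the 40 genes had such groups, among them Aldh7a1, Nnmt, Odc1, Chac2 and Anpep. Got1, the cytosolic aspartate aminotransferase that also acts on cysteine sulfinate, read 10.57 to 10.97 in GFP livers and 10.49, 9.51, 9.44, 9.75 and 10.77 in Phf2 livers, low on the arrays on which Cth was low, and did not pass (-0.77, adjusted p = 0.0536). It passed with array weights (0.044), the filter on dim features (0.0366), median centring (0.043) and the pancreatic covariate (0.0167). It also passed without Phf2 replicate 1 (0.0307) or 5 (0.0061), and in no other fit. Without the arrays rich in pancreatic markers its value was -0.43 (0.413). Got1 was singled out after its values were seen.

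Of 11 genes of glutathione synthesis and turnover besides Gss, 2 were lower, 9 were not called, and the median was 0.02. Chac2, an enzyme that degrades glutathione, fell by 0.58 (SE 0.11, limma adjusted p = 0.00467), and Anpep, a surface peptidase, fell by 0.27 (adjusted p = 0.0400). The Anpep call held in 9 of 21 alternatives and was lost by the methods' t-test (0.0662), under median centring (0.0523) and with a replicate block (0.112). Gclc, the catalytic subunit of glutamate-cysteine ligase, which precedes Gss, read 9.66, 9.88, 10.19, 9.81 and 10.11 in GFP livers and 10.20, 10.37, 10.69, 10.24 and 9.99 in Phf2 livers, a value of 0.37 (adjusted p = 0.107), and its modifier subunit Gclm had 0.01 (adjusted p = 0.966). Gclc passed without Phf2 replicate 5 (0.45, limma adjusted p = 0.0454) and in no other fit. Slc7a11, the exchanger that brings cystine into cells, read 3.69 to 4.57 in GFP livers and 4.30, 6.27, 6.21, 7.03 and 4.10 in Phf2 livers. Its high arrays are the 3 on which Cth was low, and its value of 1.56 (SE 0.49, adjusted p = 0.0681) passed without Phf2 replicate 1 (1.89, adjusted p = 0.0249) or 5 (1.93, 0.0139) and with the pancreatic level as a covariate (1.57, 0.0120). It did not pass in the other fits, among them the methods' t-test (0.187), a robust prior with an intensity trend (0.165) and the fit without the arrays rich in pancreatic markers (1.27, 0.356), and its mean level was too low for the filter on dim features. Chdh, Gclc, Gclm, Mtr and Slc7a11 were named after their values were seen. So were Aldh7a1, Baat, Ethe1 and Sqor, the remaining calls of their lists.

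**Figure D4:**
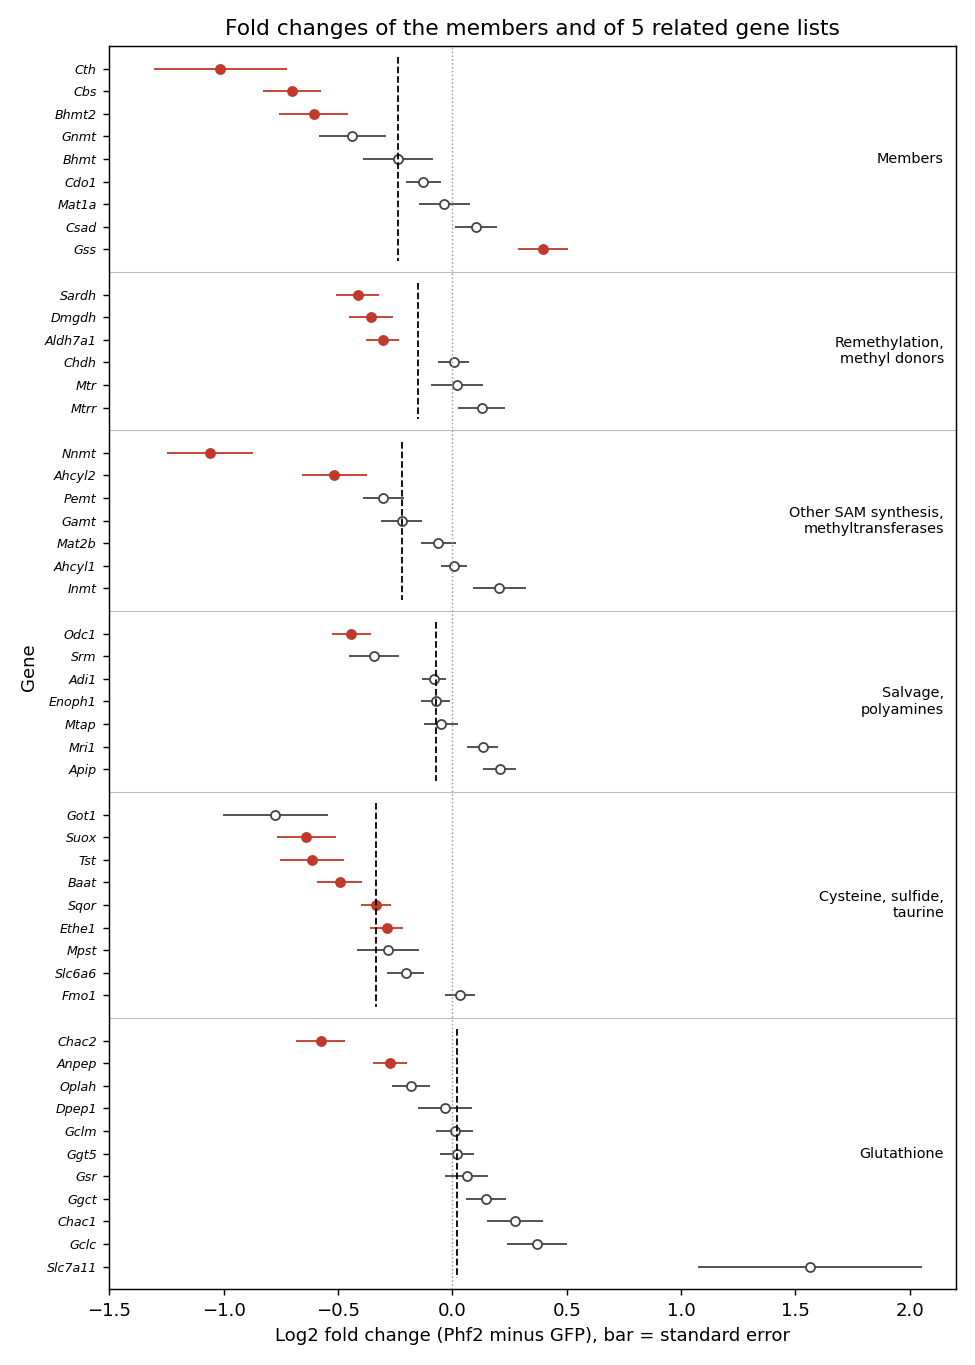
Log2 fold change (Phf2 minus GFP, horizontal axis) with its SE (bars) of the 9 genes with a value and the 40 genes of the 5 related lists (rows). Filled red marks genes called by limma at 0.05 after adjustment, open marks the others, and dashed lines mark the median of each list, from -0.33 for cysteine, sulfide and taurine to 0.02 for glutathione.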

How the data were processed

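Liver RNA of 5 GFP and 5 Phf2 mice was measured on 1 array each. Per the labels and methods, the authors used RMA (Bioconductor) and Partek GS and deposited log2 values for 35556 features. Their tool versions and the array's genome build were not given in these sources. RMA equalizes the arrays, so that values are relative to the other transcripts of an array. The methods name a human array and an analysis of variance, whereas the feature numbers matched a mouse annotation.

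Features with 1 symbol (21789) were named through the platform annotation and the RefSeq gene table of GRCm38.p6, and the one with the highest mean stood for a gene, which left 19938 genes. Groups came from the sample titles. The comparison used lmFit and eBayes of limma 3.58.1 (R 4.3.3) without covariates, and p-values of all genes were adjusted by Benjamini and Hochberg, with calls at 0.05. The study's analysis of variance, which with these groups is a plain t-test per gene, was run as an alternative and is called the methods' t-test. A two-sided exact permutation test over arrays was added for single values. The pipeline was tested on simulated data. The genes, the lists, and the rule for naming (all 10 genes, and, from every list, up to 2 called genes that rose most and 2 that fell most) were chosen with earlier results of these data known. Precision is limited by the number of arrays. The p-values and SE of limma combine a gene's own spread between these mice with that of all genes. For Cth the unadjusted p was 0.00428 in limma and 0.0211 by the methods' t-test, which uses the gene's own spread only. The alternatives comprised array weights, the methods' t-test, a filter on dim features, a robust prior with an intensity trend, quantile normalization, median centring, all features, the mean of a gene's features, a replicate block, a pancreatic covariate, and leaving out each array. Leaving out arrays rich in pancreatic markers was chosen after seeing the data. No pairing of replicate numbers is described in the labels.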

Additional observations from a re-analysis of the deposited data

Results flagged for a closer look

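In 3 of 36 groups of 5 arrays (18 genes, 2 groups each), 1 array stood apart from the other 4 by Dixon's criterion at the 95% level, where chance gives about 1 in 20. Cdo1 was high in Phf2 replicate 5, at 12.13 against 11.76 to 11.86 on the other Phf2 arrays. Dmgdh was low in GFP replicate 3, at 10.67 against 10.85 to 10.90. Chac2 was low in GFP replicate 4, at 8.48 against 8.76 to 8.82.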

How the results depend on the processing

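Cbs kept its call in 20 of 21 alternatives, Bhmt2 in 14, Gss in 10 and Cth in 8, with the direction of each unchanged in all 21. The log2 fold change of Cth (-1.01) no longer passed by the methods' t-test (adjusted p = 0.147), with an intensity trend and robust prior (0.123), over all features (0.0999) or after quantile normalization (-0.99, 0.0518). That of Bhmt2 (-0.61) no longer passed by the methods' t-test (0.0880) or over all features (0.0557), and that of Gss (0.40) by the methods' t-test (0.110), over all features (0.0839) or under median centring (0.38, 0.0782). Without the arrays with pancreatic markers above 10, values were -0.65 for Cth, -0.62 for Cbs, -0.40 for Bhmt2 and 0.33 for Gss, none of which passed in limma, and Mat1a changed sign to 0.13. Fewer arrays were fitted there, and the cause was not tested. When 1 array was left out, values ran from -1.24 to -0.85 for Cth, -0.73 to -0.50 for Bhmt2, 0.31 to 0.44 for Gss, -0.35 to -0.12 for Bhmt, 0.04 to 0.16 for Csad, -0.55 to -0.35 for Gnmt (past the threshold without Phf2 replicate 5) and -0.11 to 0.04 for Mat1a, which changed sign without Phf2 replicate 2 (0.0059) or 3 (0.044).

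The 3 lower and 1 higher genes became 1 and 0 by the methods' t-test and over all features, 3 and 0 under median centring and at 1.5-fold with an unadjusted p of 0.05, and 0 and 0 without the arrays above 10 (limma). They ran from 1 to 4 lower and 0 to 1 higher when 1 array was left out. Of the related genes named by rule, Nnmt kept its call in 21 alternatives, Odc1, Suox and Chac2 in 20, Sardh and Tst in 19, Dmgdh and Ahcyl2 in 11 and Anpep in 9. Calls among the 40 related genes (13 lower, 0 higher) became 8 lower by the methods' t-test and 1 lower without the arrays above 10, included 1 higher gene (Slc7a11) with the pancreatic covariate, and ran from 8 to 13 lower and 0 to 2 higher when 1 array was left out. Of all genes, 1083 were called higher and 846 lower. There were 694 higher and 616 lower by the methods' t-test, 475 higher and 231 lower at 1.5-fold with an unadjusted p of 0.05, 365 and 230 without the arrays above 10, and 727 to 1220 and 571 to 912 when 1 array was left out. Same-numbered arrays of the groups did not deviate together (correlation -0.29 to -0.04, 0 of 10 arrays closest to their own number), and a fit with a replicate block called 855 and 659 genes, with the same 3 lower and 1 higher of the 9 (Cth at -1.01, adjusted p = 0.0443, Gss at 0.40, 0.0470).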

Other observations

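The 3 features annotated to both Ahcy and Gm4737 belong to no single gene and were left out of the gene counts above. Feature 10488816 read 10.88, 10.79, 10.61, 10.81 and 10.72 in GFP livers and 10.11, 9.69, 9.60, 9.76 and 10.38 in Phf2 livers. Feature 10439762 lay at 10.63 to 10.93 and 9.63 to 10.32, and feature 10344713 at 10.35 to 10.74 and 9.36 to 10.04. In the limma fit over all 35556 features all 3 passed, with log2 fold changes of -0.98 (SE 0.14, adjusted p = 0.00291) for 10344713, -0.92 (SE 0.13, adjusted p = 0.00336) for 10439762 and -0.85 (SE 0.14, adjusted p = 0.00607) for 10488816. That fit called 976 of all features higher and 727 lower. On all 3 the Phf2 arrays lay below every GFP array, with Phf2 replicates 1 and 5 the closest to them. Groups that did not overlap, with Phf2 livers the lower, were seen for 4.36% of all genes. The 3 features carry the same symbols and moved alike, so they are not separate results.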
